A study of Mus musculus with 10 samples.

Results

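Cajal-Retzius neuron markers were followed as 7 genes, Reln, Trp73, Calb2, Lhx1, Lhx5, Ebf2 and Ebf3, in a comparison of the caudal with the rostral end of the embryonic mouse neocortex. Every probe to which the platform annotation gives 1 of these symbols and no other was taken, which gave 8 probes, 2 of them for Reln, of 21766 probes and 15063 named genes in all. RNA came from the caudal and the rostral parts of the mouse neocortex at E11.5, in the outbred stock MF1 (3 pools) and the inbred strain C57 (2 pools), and the labels name no treatment. A pool held tissue of 3 embryos taken within a litter, and no single animal can be told apart in it. The caudal and the rostral cDNA of a pool were amplified and hybridised together on a 2-colour array, and a second array carried them with the Cy3 and Cy5 dyes exchanged, so that the 5 pools lie on 10 arrays. Using both strains addressed how far a difference along the cortex depends on the genetic background. The design text counts 3 sets for each strain, of which 2 are analysed here for C57.

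Cajal-Retzius neurons are among the earliest born neurons of the cortex. They arise at its borders, chiefly the cortical hem on the caudomedial side, the septum and the ventral pallium, and spread tangentially beneath the pia into the marginal zone. There they secrete reelin, which reaches neurons through the receptors Lrp8 (ApoER2) and Vldlr and the adaptor Dab1 and directs radial migration and layering. Trp73 marks the cells that come from the hem and septum, while reelin is the product that cells of all these origins share. At E11.5 the neocortical wall is mostly proliferating neuroepithelium, and the first of these cells lie in the preplate.

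Values are given as caudal over rostral log2 ratios, in which a number above 0 stands for more RNA in the caudal tissue. This reads each deposited ratio as Cy5 over Cy3, which is likely but which no label states, and under the opposite reading every sign would turn together. The values are ratios only, so the level of a gene, and whether it was expressed at all, cannot be read from them. The arrays gave a ratio for 13723 to 18288 probes in MF1 and for 20191 to 20870 in C57, and their number limits the precision. Testing required ratios under both dye orders in 2 or more pools of each strain and covered 11855 probes. Pool medians over these probes ran from -0.18 to 0.15 in MF1 and from -0.10 to 0.36 in C57, and the median of the fitted mean of both strains was 0.09. Tests are limma's moderated tests on pool values, adjusted by Benjamini-Hochberg over all tested probes. They measure the spread between pools, and 5 pools could not give a two-sided p below 0.0625 by exact sign changes of a single probe. Of the 8 probes, 6 were tested, 1 for each of 6 genes. None passed an adjusted p of 0.05, nor did any other probe in limma (0% called), while 367 probes (3.1%) had an unadjusted p under 0.05 for the mean of both strains.

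**Figure D1:**
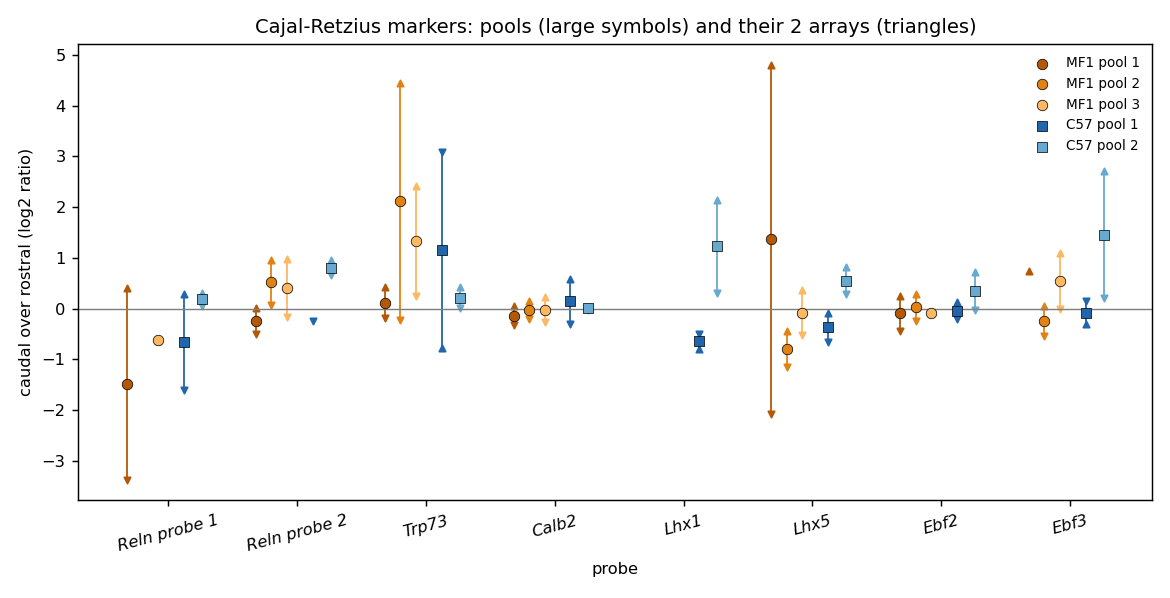
Caudal over rostral log2 ratio (vertical axis) of the 8 probes (horizontal axis) in each pool. Large symbols are pool values, circles for the 3 MF1 pools and squares for the 2 C57 pools; up triangles are arrays with caudal RNA in Cy5, down triangles those with caudal RNA in Cy3, and a line joins the 2 arrays of a pool. Trp73 is above 0 in all 5 pools, Calb2 and Ebf2 stay near 0, and the 2 arrays of a pool lie up to 6.89 apart for Lhx5.

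Reln encodes reelin, the secreted glycoprotein of these neurons, and its 2 probes gave different pictures. The first probe, designed on NM_011261, had pool ratios of -1.48 in MF1 pool 1 and -0.62 in MF1 pool 3, with no value in MF1 pool 2, against -0.66 in C57 pool 1 and 0.18 in C57 pool 2. Both MF1 pools and C57 pool 1 therefore lay on the rostral side, and C57 pool 2 on the caudal side, although below the median of its own pool. In 2 of these pools the 2 arrays disagreed: MF1 pool 1 gave 0.41 with caudal RNA in Cy5 and -3.37 with caudal RNA in Cy3, and C57 pool 1 gave 0.29 and -1.60 in the same order. MF1 pool 3 gave -0.63 and -0.62, and C57 pool 2 gave 0.31 and 0.05. The rostral side of MF1 pool 1 and C57 pool 1 thus came from the Cy3 array alone, and the mean of both strains on arrays with caudal RNA in Cy5 was 0.09. The probe was below the pool median in all 4 pools, at percentiles 2.82 and 4.93 of the MF1 pools and 7.92 and 14.7 of the C57 pools. The fitted mean of both strains was -0.65 ± 0.25 (SE), with a 95% interval of -1.31 to 0.01, a limma p of 0.0532 and a Benjamini-Hochberg adjusted p of 0.983. By strain, the ratio was -1.05 ± 0.36 in MF1 (interval -1.99 to -0.12, limma p 0.0341, adjusted p 0.995) and -0.24 ± 0.36 in C57, and the strains' intervals overlap. In this bulk tissue, fewer cells of a type and less RNA per cell cannot be told apart.

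The second Reln probe, designed on U72343, had pool ratios of -0.24, 0.52 and 0.41 in MF1 pools 1, 2 and 3, and 0.80 in C57 pool 2. It had 9 arrays and no pool value in C57 pool 1, where the array with caudal RNA in Cy5 gave no ratio and the other gave -0.24, so it was not among the tested probes. It was above the pool median in 3 of 4 pools. In a fit without the filter, which takes a pool value from whichever arrays have a ratio, its mean was 0.25 ± 0.25 with an interval of -0.40 to 0.91. Over the 3 pools that both Reln probes share, their root mean square difference was 0.999 on the log2 scale, and their signs matched in 2. The median log2 ratio of all tested probes, 0.09, lies between the means of the 2 Reln probes, and which of them follows the transcript was not tested.

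Trp73 encodes p73, a p53 family transcription factor needed for the survival of hem-derived Cajal-Retzius cells. Its pool ratios were 0.12, 2.11 and 1.34 in MF1 pools 1, 2 and 3, and 1.15 and 0.22 in C57 pools 1 and 2. All 5 pools were positive, which holds for 371 of the 8924 probes measured in all 5 pools (4.16%). C57 pool 2 stood at percentile 20.3 of its own pool, below that pool's median of 0.36, so 4 of 5 pools were above their pool median. The fitted mean was 0.94 ± 0.33, with an interval of 0.13 to 1.75, or 1.91-fold caudal over rostral, at a limma p of 0.0304 and a Benjamini-Hochberg adjusted p of 0.983. A limma p under 0.05 was reached by 3.1% of all tested probes, and by 1.98% with a positive ratio. Of all tested probes, 0.919% had a mean at least as far from 0 as that of Trp73. Leaving out 1 pool at a time gave means of 0.70 to 1.20.

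The size of the Trp73 ratio came from a few arrays. In MF1 pool 2, the array with caudal RNA in Cy5 gave 4.45 and its partner -0.22. In MF1 pool 3, the same pair of arrays gave 2.42 and 0.26, and in MF1 pool 1 they gave 0.42 and -0.18. In C57 pool 1 the order was the other way, with -0.78 on the array with caudal RNA in Cy5 and 3.08 on its partner, while C57 pool 2 gave 0.43 and 0.01. The 2 arrays of a pool lay on the same side of 0 in 2 of 5 pools. Taking arrays with caudal RNA in Cy3 alone, the MF1 ratio was -0.05, and taking those with caudal RNA in Cy5 alone, the C57 ratio was -0.18. When the 10 arrays were fitted singly with a term for the dye, the mean was again 0.94 but its SE was 0.71. Its limma p was then 0.221.

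Of the other p53 family genes, Trp63, which encodes the p63 of stratified and placodal epithelia, was tested, and no probe carried Trp53 as its only symbol. Trp63 was negative in all 5 pools, at -1.24, -1.02 and -1.48 in the MF1 pools and -0.20 and -0.50 in the C57 pools, with a mean of -0.80 ± 0.15 and a limma p of 0.0021 (adjusted p 0.983). Among all tested probes, 0.962% were negative in every measured pool, and 1.11% had a limma p under 0.05 with a negative ratio. This value too differed by dye: arrays with caudal RNA in Cy5 averaged 0.03 and those with caudal RNA in Cy3 -1.81. The 2 family members thus lay on opposite sides of 0 in each of the 5 pools, Trp73 caudally and Trp63 rostrally.

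Calb2 encodes calretinin, a calcium-binding EF-hand protein of Cajal-Retzius cells and other early neurons. Its pool ratios were -0.14, -0.02 and -0.02 in MF1 pools 1, 2 and 3, and 0.14 and 0.0035 in C57 pools 1 and 2. The 5 pools spanned the narrowest range of the 8 probes, 0 lay among them, and the SD over pools was 0.101. The fitted mean was 0.01 ± 0.13, and its 95% interval of -0.33 to 0.34 reaches 1.25-fold on the rostral and 1.26-fold on the caudal side. Calb2 thus carried the tightest bound of the tested members, with a difference beyond about that size lying outside the interval. This bound holds for pool values that average both dye orders. Alone, these gave means of 0.22 with caudal RNA in Cy5 and -0.21 with caudal RNA in Cy3. After centring of each array the mean was -0.04. On every one of the 10 arrays the deposited ratio was positive, so that each array with caudal RNA in Cy5 read above 0 and each with caudal RNA in Cy3 below 0. That pattern was shared by 157 of the 8924 probes with 10 ratios (1.76%).

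In the list of EF-hand proteins around Calb2, 6 probes were tested, Calb2 included. Their ratio was positive for 5 and negative for 1, none had a limma p under 0.05, and the median was 0.07 beside 0.09 for all tested probes. Of all tested probes, 69.4% were positive and 3.1% had a limma p under 0.05. Ncald, which encodes neurocalcin delta, had the smallest p, with a mean of 0.40 ± 0.18 and positive values in 4 of 4 pools, where 4.14% of all tested probes were positive in every measured pool. The genes whose 5 pool values lay nearest to those of Calb2 were Mrpl1, Znrd1 and Rpl35a, at root mean square differences of 0.038, 0.0393 and 0.066 among 7530 named probes with a median of 0.371. Calb2 stood in for Reln as the reference here, because neither Reln probe was measured in all 5 pools. Ebf2 ranked 621 of these probes at 0.179, Lhx5 6736 at 0.827 and Trp73 7294 at 1.23, so neither Lhx5 nor Trp73 was among the nearer probes.

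Lhx5 and Lhx1 encode LIM-homeodomain transcription factors of Cajal-Retzius cells, and Lhx5 is also needed for the formation of the cortical hem. Lhx5 had pool ratios of 1.36, -0.79 and -0.08 in MF1 pools 1, 2 and 3, and -0.37 and 0.55 in C57 pools 1 and 2. Both strains held pools on either side of 0. The fitted mean was 0.13 ± 0.35, with an interval of -0.74 to 0.99, which reaches 1.67-fold on the rostral and 1.99-fold on the caudal side. MF1 pool 1 rested on 2 arrays that read 4.81 with caudal RNA in Cy5 and -2.08 with caudal RNA in Cy3. That gap of 6.89 compares with a median gap of 0.499 over tested probes in the same pool. Without MF1 pool 1, the mean was -0.17.

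Lhx1 could be read in C57 only. Its probe gave no ratio on any of the 6 MF1 arrays and a ratio on all 4 C57 arrays, a pattern shared by 387 probes, or 1.78% of all. The 2 arrays of C57 pool 1 gave -0.79 and -0.50, and those of C57 pool 2 gave 2.15 and 0.30 (caudal RNA in Cy5, then in Cy3). The pool values were therefore -0.65 and 1.22, with the 2 pools on opposite sides of 0 and a C57 mean of 0.29 ± 0.64 in the fit without the filter. These signs, rostral in C57 pool 1 and caudal in C57 pool 2, were also those of Lhx5, the first Reln probe, Ebf2 and Ebf3, and of the medians of all tested probes, -0.10 and 0.36. The missing MF1 ratios do not show that the gene was silent there.

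Among LIM-homeobox and LIM-only genes, listed together with the LIM-binding cofactors Ldb1 and Ldb2, 14 probes were tested, with 10 positive, 4 negative and none at a limma p under 0.05. Their median was 0.14, beside 0.09 for all tested probes. Of all tested probes, 69.4% were positive and 3.1% had a limma p under 0.05. Lhx2, which keeps the neocortical field from turning into hem, had 0.32 ± 0.15 with 4 of 5 pools positive. The highest means were those of Lmo2 (0.60 ± 0.28) and Lmx1a, a hem gene (0.50 ± 0.39), and the lowest those of Lmx1b (-0.41 ± 0.47) and Isl1, of the ventral telencephalon (-0.29 ± 0.23). The other probes of the list, Lhx5 among them, lay between -0.05 and 0.33.

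Ebf2 and Ebf3 encode transcription factors of the COE family that are expressed in Cajal-Retzius cells. Ebf2 had pool ratios of -0.09, 0.02 and -0.09 in MF1 pools 1, 2 and 3, and -0.04 and 0.345 in C57 pools 1 and 2. The 3 MF1 pools and C57 pool 1 lay close to 0, and the value of C57 pool 2, the farthest from 0, was below the median of that pool, at percentile 47.2. The fitted mean was 0.05 ± 0.14, with an interval of -0.30 to 0.40. Centring each array brought the mean to -0.0005.

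Ebf3 had pool ratios of -0.24 and 0.55 in MF1 pools 2 and 3, and -0.08 and 1.46 in C57 pools 1 and 2, while MF1 pool 1 had a ratio of 0.75 on 1 array and none on the other. Each strain had 1 pool on either side of 0. The fitted mean was 0.42 ± 0.32, with an interval of -0.43 to 1.27. C57 pool 2 stood at percentile 99.3 of its pool and rested on arrays of 2.72 and 0.20. Without that pool the mean was 0.04.

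Ebf1, the COE gene of the striatal primordium and of other lineages, was negative in 4 of 4 pools, at -0.76 and -0.84 in MF1 pools 1 and 3 and -0.88 and -0.15 in C57 pools 1 and 2. Its mean was -0.66 ± 0.20 with a limma p of 0.0236 (adjusted p 0.983), and it averaged -0.72 where Cy5 labelled the caudal RNA and -0.59 where Cy3 did. No probe carried Ebf4. The COE family thus held 1 gene with rostral ratios under both dye orders, and 2 whose pools lay on both sides of 0.

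**Figure D2:**
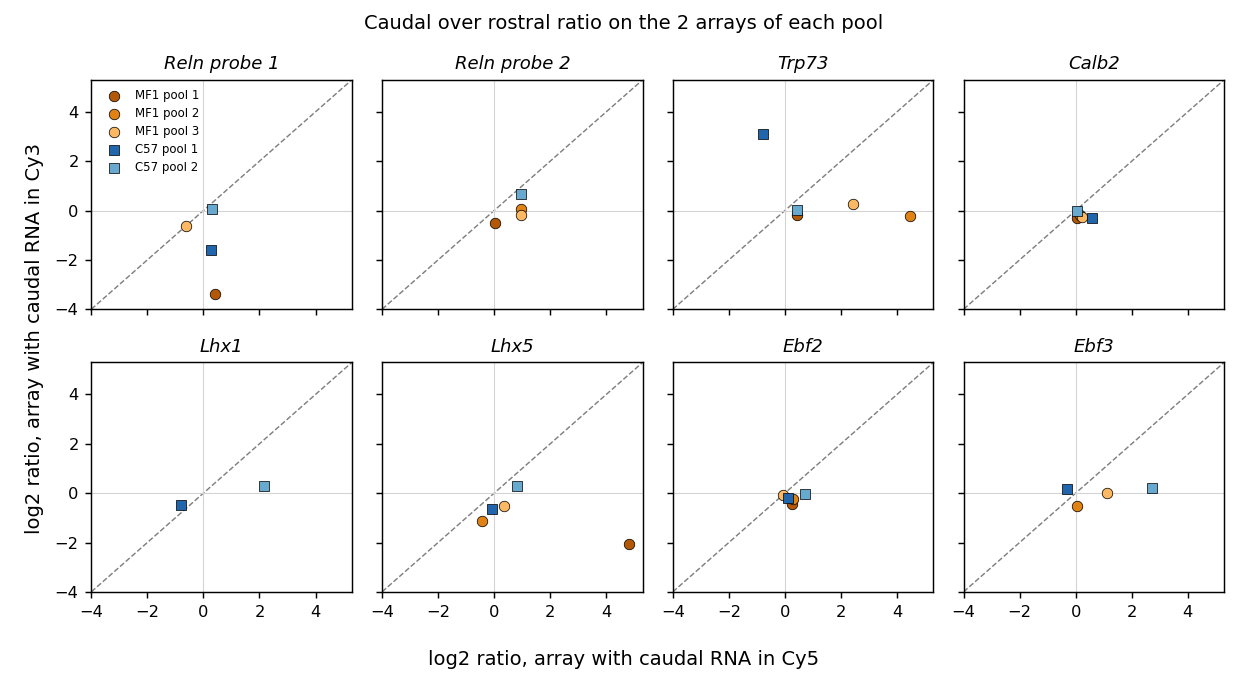
Caudal over rostral log2 ratio on the array with caudal RNA in Cy5 (horizontal axis) against that on the array with caudal RNA in Cy3 (vertical axis), 1 point a pool, circles for MF1 and squares for C57; the dashed line marks equal readings. Most points lie below the line, and the 2 arrays of a pool lay on the same side of 0 in 9 of 28 pool pairs of the tested members.

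The 2 arrays of a pool hold the same pair of RNAs, so their readings can be set side by side. Over the 6 tested probes, the 2 arrays fell on the same side of 0 in 9 of 28 pool pairs (32.1%), against 31143 of 56344 (55.3%) over all tested probes. For Calb2 this was so in none of 5 pools, for Ebf2 in 1, for Lhx5 in 3 and for the first Reln probe in 2 of 4. The dye term of the fit on single arrays, caudal in Cy5 minus caudal in Cy3, was 1.48 ± 0.63 for the first Reln probe, 1.92 ± 0.91 for Lhx5 and 0.95 ± 0.49 for Ebf3. It was 0.80 ± 0.99 for Trp73, 0.43 ± 0.15 for Calb2 and 0.46 ± 0.16 for Ebf2, and the median of all tested probes was 0.35. None of the 6 dye terms passed, with a smallest limma adjusted p of 0.138. With each array centred, the median became 0.04, and the terms of Calb2 and Ebf2 became 0.11 and 0.15, while the first Reln probe and Lhx5 kept 1.14 and 1.61. The 4 arrays of the first Reln probe with caudal RNA in Cy3 averaged -1.39.

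**Figure D3:**
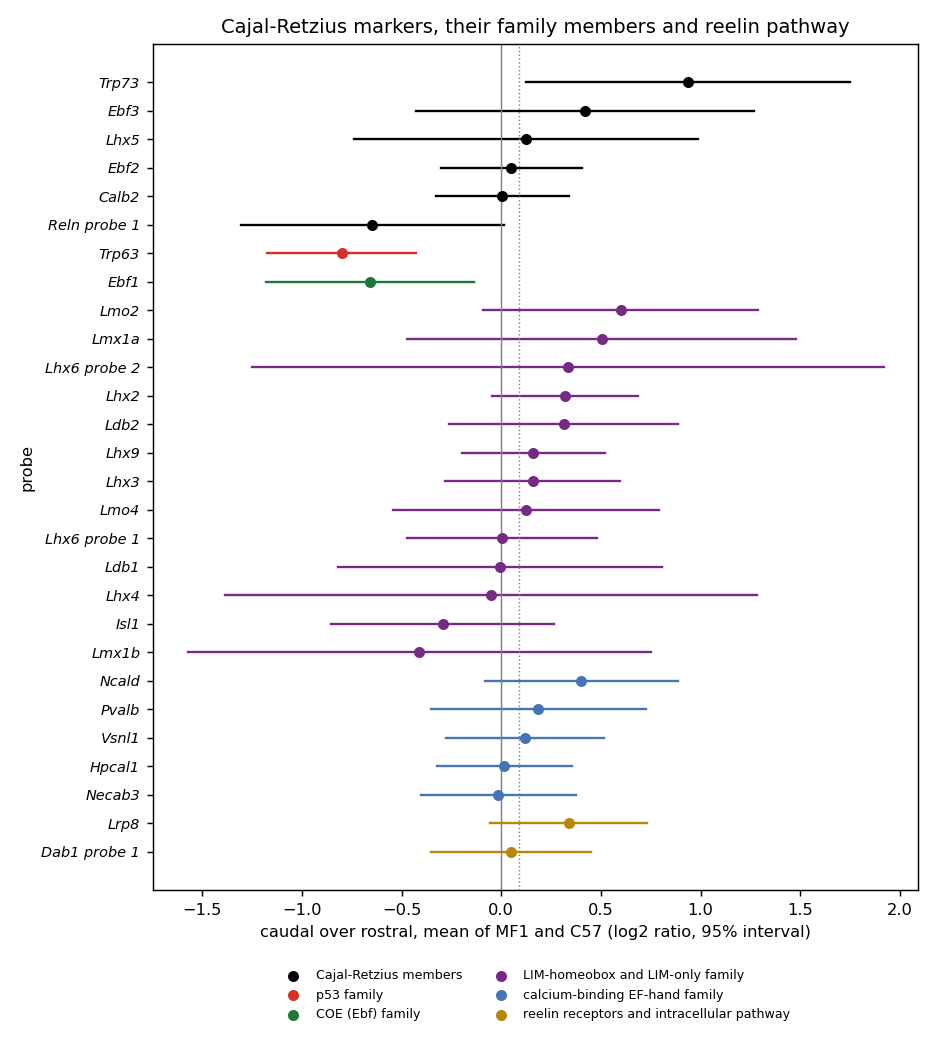
Mean caudal over rostral log2 ratio of both strains with its 95% limma interval (horizontal axis) for tested probes of the members, their families and the reelin receptor and adaptor (vertical axis, coloured by family). The solid line is 0 and the dotted line the median of all tested probes, 0.09; the intervals of Trp73, Trp63 and Ebf1 lie to 1 side of 0, with none passing an adjusted p of 0.05.

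In order of mean ratio the tested members ran from Trp73 (0.94) through Ebf3 (0.42), Lhx5 (0.13), Ebf2 (0.05) and Calb2 (0.01) to the first Reln probe (-0.65). Each 95% interval overlapped that of its neighbour in this order, while those at the ends, 0.13 to 1.75 for Trp73 and -1.31 to 0.01 for the first Reln probe, did not overlap. These 2 probes were picked as the ends by their values. The interval of the second Reln probe in the fit without the filter, -0.40 to 0.91, does overlap that of Trp73. The difference between the 2 genes was not tested. Of the 6 probes, 5 had a positive mean, beside 69.4% of all tested probes, and 1 had a limma p under 0.05, beside 3.1%. The median of the members was 0.09, the same as that of all tested probes. Pool by pool, their median was -0.09, -0.02 and -0.05 in MF1 pools 1, 2 and 3, and -0.06 and 0.28 in C57 pools 1 and 2, close to the pool medians given above in MF1 pool 1 and both C57 pools and below them in the other two. The pool values of the members differed among themselves, and the root mean square difference over shared pools was 1.23 between Trp73 and Calb2, 1.70 between Trp73 and Lhx5 and 1.56 between Trp73 and the first Reln probe, against 0.179 between Calb2 and Ebf2.

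The strains were compared by the difference of their ratios, MF1 minus C57. It was -0.81 ± 0.50 for the first Reln probe, -0.53 ± 0.65 for Ebf3, -0.20 ± 0.29 for Ebf2, -0.13 ± 0.27 for Calb2, 0.07 ± 0.70 for Lhx5 and 0.51 ± 0.65 for Trp73. The limma adjusted p was 0.999 for each, and the intervals are wide, from -2.13 to 0.51 for the first Reln probe and from -1.12 to 2.13 for Trp73. For the first Reln probe the interval reaches 4.39-fold with the lower ratio in MF1 and 1.42-fold with the higher. For Trp73 it reaches 2.17-fold with the lower ratio in MF1 and 4.37-fold with the higher. A limma p under 0.05 for this difference was found for 1.88% of all tested probes and for none of the 6. Leaving out 1 pool moved the difference of the first Reln probe to between -1.24 (without MF1 pool 3) and -0.39 (without MF1 pool 1), and to -1.23 without C57 pool 1 and -0.40 without C57 pool 2. That of Trp73 moved to 1.04 without MF1 pool 1 and 0.97 without C57 pool 1, and to 0.0452 without MF1 pool 2 and 0.0408 without C57 pool 2. Within MF1, Trp73 had 1.19 ± 0.41 (limma p 0.03, adjusted p 0.995), and within C57 it had 0.68 ± 0.51. Trp73 on the caudal side and the first Reln probe on the rostral side were thus the 2 members with a limma p under 0.05 in MF1, and none was in C57; the corresponding backgrounds were 3.96% in MF1 and 1.81% in C57. Without MF1 pool 2 the MF1 ratio of Trp73 was 0.73.

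The receptors and intracellular partners of reelin had ratios on both sides of 0. Of 18 tested probes for 17 genes, 11 were positive and 7 negative, none had a limma p under 0.05, and the median was 0.04. Over all tested probes, 69.4% were positive, 3.1% had a limma p under 0.05 and the median was 0.09. Lrp8 had the smallest p, with pool ratios of 0.32, 0.31 and 0.68 in MF1 pools 1, 2 and 3 and -0.02 and 0.49 in C57 pools 1 and 2, and a mean of 0.34 ± 0.16 (interval -0.06 to 0.73). It was positive in 4 of 5 pools and under both dye orders, at 0.48 with caudal RNA in Cy5 and 0.24 with caudal RNA in Cy3. Vldlr was not tested, as C57 pool 1 gave no pool value, and had -0.02, 0.31 and 0.26 in MF1 and 0.60 in C57 pool 2. The tested Dab1 probe had 0.05 ± 0.16, with 2 pools positive and 3 negative. A second Dab1 probe, not tested, had -1.87 in MF1 pool 1, where the tested probe had 0.20, and 0.03 and 0.48 in C57 pools 1 and 2. Fyn, the kinase that phosphorylates Dab1, had 0.15 ± 0.21, Crk, which binds phosphorylated Dab1, 0.05 ± 0.14, and Pafah1b1 (Lis1) 0.05 ± 0.16.

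Of 13 tested probes for other genes of Cajal-Retzius cells and the preplate, 11 were positive and 2 negative, and 2 had a limma p under 0.05, both positive. Over all tested probes 69.4% were positive, 1.98% were positive with a limma p under 0.05 and 1.11% were negative with a limma p under 0.05. These shares and the overall median of 0.09 are the background of all the lists that follow. The median of this list was 0.11. Nhlh2, a basic helix-loop-helix factor of early neurons, had pool ratios of 0.79, 0.01 and 0.25 in MF1 and 0.86 and 0.92 in C57, with a mean of 0.62 ± 0.17 (limma p 0.0117, adjusted p 0.983). It was positive in all 5 pools and averaged 0.63 and 0.51 under the 2 dye orders. Gdf5, a BMP family ligand, had a mean of 0.44 ± 0.16, but 0.90 where Cy5 labelled the caudal RNA and -0.12 where Cy3 did. Tbr1, a T-box factor of early glutamatergic neurons, had 0.08 ± 0.20, and Ndnf, a secreted protein of Cajal-Retzius cells, -0.20 ± 0.16 with 4 of 5 pools negative. The counts leave out untested probes. Among these, Zic1 was negative in all 4 pools it was measured in, at -0.81, -3.20 and -0.47 in MF1 and -0.29 in C57 pool 2. Lhx1os was positive in the 3 pools it was measured in, at 0.57 in MF1 pool 3 and 0.06 and 0.43 in C57. Cacna2d2, Dkk3 and Car10 had pool values in C57 only, all positive.

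In the list for the hem, septum and pallial border, where these neurons arise, 12 of 15 tested probes were positive. Of these, 2 had a limma p under 0.05, and the list's median was 0.24. Those 2 were Ttr, made by the choroid plexus next to the hem, and Rspo3, a WNT agonist of the hem, each positive in all 5 pools. The 3 negative probes were those of Wnt8b (-0.04 ± 0.40), Fgf8 (-0.01 ± 0.18) and Otx2 (-0.0028 ± 0.15). Of the 10 probes of this list that were not tested, that of Fgf15, an FGF ligand, was negative in all 4 pools it was measured in, at -0.91, -1.29 and -0.99 in MF1 and -0.47 in C57 pool 1. That of Wnt5a, a WNT ligand of the hem, had -1.76 in MF1 pool 1 and -2.42 and 0.46 in C57 pools 1 and 2. That of Dbx1, a gene of the pallial border, had pool values in C57 only, 0.53 and 0.47, so the counts above do not include it. The list's median lay above the median of all tested probes in each of the 5 pools, by between 0.03 in C57 pool 1 and 0.47 in MF1 pool 3. The median of the blood markers described below also lay above it in each of the 5 pools. Of the regulators of Cajal-Retzius fate, 13 of 15 probes were positive, with a median of 0.27, and the 2 probes of Nr2f1 were those with a limma p under 0.05.

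**Figure D4:**
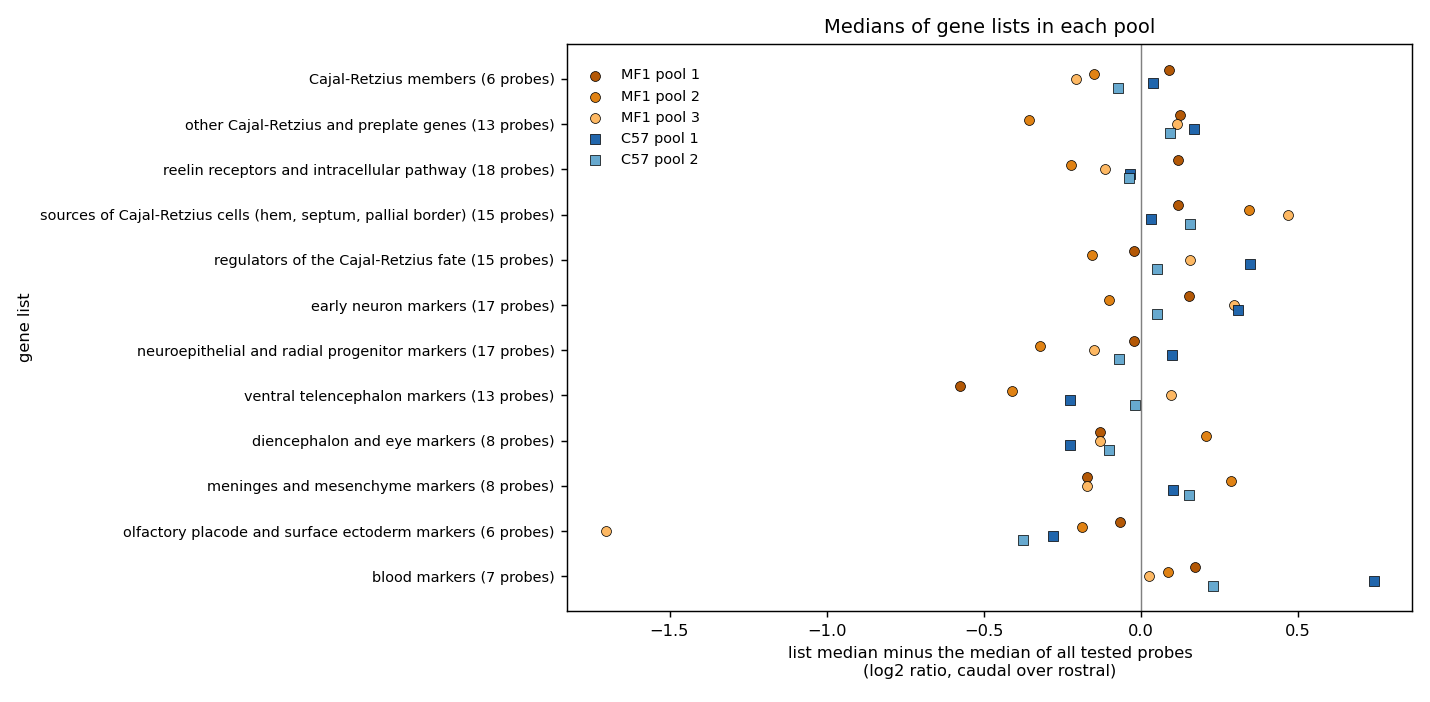
Median caudal over rostral log2 ratio of each gene list (vertical axis, with its number of tested probes) minus the median of all tested probes, in each pool (horizontal axis); circles are MF1 pools and squares C57 pools. The Cajal-Retzius members lie on both sides of 0. The list of their sources and the blood markers lie above 0 in all 5 pools, and surface ectoderm markers lie below 0 in all 5.

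Markers of other cells in the dissected tissue also differed in their medians, and their part in the members' ratios was not tested. Early neuron markers had 15 of 17 probes positive, 2 with a limma p under 0.05 (Neurod1 at 0.74 ± 0.14 and Dpysl3 at 0.44 ± 0.16), and a median of 0.25. Progenitor markers had 10 of 17 positive and a median of 0.06. In that list the 2 probes of Ccnd2, a G1 cyclin, had 0.68 ± 0.19 and 0.86 ± 0.29, while Ccnd1, another G1 cyclin, had -0.68 ± 0.23 and a probe of Slc1a3, a glutamate transporter of radial glia, -0.54 ± 0.16, each with a limma p under 0.05. The other tested Slc1a3 probe had -0.15 ± 0.46, with -1.26, 1.61 and 1.19 in the MF1 pools and -1.25 and -0.36 in the C57 pools. Ventral telencephalon markers had 6 of 13 positive and a median of -0.23, with Dlx1, Dlx2 and Ebf1 negative at a limma p under 0.05. By strain, Dlx1 had -1.69 in MF1 and -0.28 in C57, Dlx2 -1.58 and 0.06, and Ebf1 -0.80 and -0.52. Surface ectoderm and placode markers had 1 of 6 positive and a median of -0.34, with Krt18 and Trp63 negative at that level. Krt18 had -2.61 in MF1 and -0.28 in C57, and Trp63 had -1.25 and -0.35. Blood markers had 7 of 7 positive and a median of 0.35, with Hbb-y and Hbb-bh1 at a limma p under 0.05. Hbb-y had 0.14 in MF1 and 0.90 in C57, and Hbb-bh1 had 0.18 and 0.85. The 2 Hba-x probes had 0.0022 and 0.013 in MF1 and 0.70 and 0.54 in C57, and Hba-a1 had 0.0017 and 0.18. In MF1 pool 1 the median of the blood markers was -0.008. Diencephalon and eye markers had 4 of 8 positive and a median of -0.01, with the smallest p for Lhx9 (0.16 ± 0.14). Meninges and mesenchyme markers had 5 of 8 positive and a median of 0.04, with the smallest p for Fbn2 (0.52 ± 0.22), and neither list held a limma p under 0.05. For MF1 minus C57, 2 ventral, 2 ectoderm and 1 blood probe had a limma p under 0.05, beside 1.88% of all tested probes. None of these probes passed an adjusted p of 0.05, for the mean or for this difference.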

How the data were processed

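The authors deposited 1 log2 ratio per probe and array, as judged from the values. Trizol extraction and an amplification of the cDNA are recorded in the labels. For the scanner, background correction, normalization and the genome build behind the probes, the sources used here give nothing, and coordinates are therefore left out. The 436 values at a shared ceiling of 16.61 and empty values were treated as missing, and 232 control spots were left out. The dye labels set the caudal over rostral direction of every array, ratios were not centred, and the 2 arrays of a pool were averaged. Of 21766 probes, 16632 carried 1 gene symbol, 139 several and 4995 none; 15952 symbols were matched to RefSeq genes of GRCm38.p6 by gene identifier, and none changed.

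The model was run in limma 3.58.1 under R 4.3.3, with a coefficient for each strain, lmFit and eBayes (2.69 prior degrees of freedom; the spread is shared by both strains), with two-sided tests and Benjamini-Hochberg adjustment over 11855 probes at a threshold of 0.05. Errors are moderated SEs. The fit was tested on simulated data. Lists were described by counts and medians, with no list test. Members and lists were chosen with earlier results of these data known. Genes were named by rule: all probes of the 7 members; in other lists, the smallest p and every limma p under 0.05; relatives in the p53, COE, LIM and EF-hand families; Lrp8, Vldlr and Dab1; and the 3 nearest patterns. Wnt8b, Fgf8, Otx2, Fgf15, Wnt5a, Dbx1, Tbr1, Ndnf, Fyn, Crk, Pafah1b1 and the other tested Slc1a3 probe were chosen after their values were seen. So were Zic1, Lhx1os, Cacna2d2, Dkk3, Car10, Hba-x and Hba-a1. Same-numbered pools of the 2 strains share only a number. Plots used Python 3.11.15 and matplotlib 3.10.9. Alternatives covered centring, scaling, the probe filter, ceiling values, each dye order alone, single arrays, averaged probes, the prior, a replicate block and leaving out each pool.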

Additional observations from a re-analysis of the deposited data

How the results depend on the processing

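No member passed an adjusted limma p of 0.05 under any setting: of 280 values of the 6 tested probes in the 4 contrasts, 249 kept their direction and 31 turned (smallest adjusted p 0.361), and with a pool left out 105 of 120 kept it and 15 turned (smallest adjusted p 0.0764, Trp73 in MF1). Many of these values could not turn. The robust prior changes only the spread, and an MF1 ratio stays the same when a C57 pool is left out, as does a C57 ratio without an MF1 pool. Keeping ceiling values or averaging probes also left the members' means unchanged. The counts that kept their direction therefore do not measure stability. The count of probes passing for the mean of both strains went to 1 (Ttr) with the 10 arrays fitted singly with a dye term, and to 8 with these arrays also centred, a setting added after seeing the data that gave 2 in C57 (Ttr and Sfrp1); without a pool, the MF1 count ran from 0 to 37, with 37 without MF1 pool 1 and 24 without MF1 pool 3. Probes with an unadjusted limma p under 0.05 for the mean numbered 367, and 242 to 1442 without a pool.

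For the mean of both strains, arrays with caudal RNA in Cy5 alone gave 0.094 for the first Reln probe and 0.11 for Trp63, and those with caudal RNA in Cy3 alone gave -0.21 for Calb2, -0.72 for Lhx5, -0.19 for Ebf2, -0.0465 for Ebf3, -0.103 for Gdf5, -0.51 for Dab1 and -0.0297 for Fbn2. In MF1 they gave, in Cy5, 0.14 for Calb2 and 0.15 for Ebf2 and, in Cy3, -0.0493 for Trp73, -1.25 for Lhx5 and -0.27 for Ebf3. In C57 they gave, in Cy5, 0.30 for the first Reln probe and -0.18 for Trp73 and, in Cy3, -0.16 for Calb2, -0.19 for Lhx5 and -0.12 for Ebf2. For MF1 minus C57, Cy3 alone gave -1.59 for Trp73 and -1.06 for Lhx5. Centring each array, with or without single arrays, gave means of -0.0441 for Calb2, -0.0005 for Ebf2 and -0.0017 for Dab1 and C57 ratios of -0.02 for Calb2 and -0.0022 for Lhx5. Centring and scaling pools gave means of -0.14 for Calb2 and -0.0139 for Ebf2, -0.23 for Calb2 in C57 and 0.17 for its strain difference. The cause was not tested.

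With a pool left out, the mean ran from -0.0287 to 0.0413 for Calb2, from -0.17 to 0.37 for Lhx5, from -0.0468 to 0.147 for Ebf2 and from -0.095 to 0.19 for Dab1. In MF1 it ran from -0.44 to 0.64 for Lhx5 and from -0.24 to 0.55 for Ebf3. In C57 it ran from -0.66 to 0.18 for the first Reln probe, from -0.37 to 0.55 for Lhx5, from -0.042 to 0.345 for Ebf2 and from -0.0795 to 1.46 for Ebf3. The strain difference ran from -1.24 to -0.39 for the first Reln probe, from 0.0408 to 1.04 for Trp73, from -0.20 to -0.0643 for Calb2, from -0.397 to -0.0097 for Ebf2, from -0.53 to 0.55 for Lhx5 and from -1.30 to 0.23 for Ebf3. With 1 C57 pool left, it is assumed to vary like the MF1 pools. With the pool number as a replicate block, 0 probes passed in each contrast, as without it, and the ratio was -0.49 for Ebf3 in MF1 and -0.0321 for Lhx5 in C57. Probes with an unadjusted p under 0.05 for the mean numbered 960 with the block. Deviations from the strain mean correlated at 0.149 between pools 1 and -0.022 between pools 2 over 8924 probes. With 2 C57 pools these deviations are mirror images, and MF1 pool 3 correlated at 0.187 with C57 pool 2. The values therefore cannot tell whether same-numbered pools belong together. The number of arrays limits what could be detected, and signal over background is not part of the deposited table.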
